A study of Homo sapiens with 6 samples.

Results

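LZTFL1 and the genes of the BBSome were followed in T24 cells, an established bladder carcinoma cell line, after silencing of RBM3. The set held 10 of the 63677 gene rows of the count table: LZTFL1, the 8 BBSome subunit genes BBS1, BBS2, BBS4, BBS5, BBS7, TTC8, BBS9 and BBIP1, and the loader ARL6. LZTFL1 was picked because its level was higher in siRBM3 cells, so its difference between the groups is given as a description with no test. The other 9 genes were taken as the known subunits and loader of the complex, and not for their values. Of the 10 genes, 8 had enough counts to be tested (LZTFL1, ARL6 and 6 subunits), while BBS1 and BBS5 were listed at or near 0.

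Control cells were T24 cells that received a non-targeting siRNA, and siRBM3 cells were T24 cells that received a pair of siRNAs against RBM3. Both groups went through the same lipofection in serum-free medium (25 nM siRNA for 4.5 h) and a night in full medium. Polyadenylated RNA of 3 control and 3 siRBM3 samples was sequenced, and the labels do not say whether replicates came from separate cultures, so that p-values cover only the spread between these samples, which may be technical. A single established line was used, its RNA was taken the day after transfection, and cilia were not examined in the files used here.

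The primary cilium is a thin projection of the cell surface that carries receptors for Hedgehog and other signals. The BBSome is a coat-like complex that moves membrane proteins in and out of the cilium, riding on the trains of intraflagellar transport (IFT). The small GTPase ARL6 recruits it to membranes, and LZTFL1, a leucine zipper protein, binds the BBSome in the cytoplasm and restrains its entry into cilia. Mutations in these genes cause Bardet-Biedl syndrome, a disorder with loss of vision, obesity and extra digits. The mRNAs are made in many cell types, cancer cells among them.

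The libraries held between 23603992 and 45098612 counts on genes, the deepest being siRBM3 replicate 3. Levels are given as CPM, the counts of a gene scaled to a common library size with TMM factors. RBM3 (ENSG00000102317) lay between 225 and 368 CPM in control and between 54.1 and 90.1 CPM in siRBM3 libraries. It was thus lower in every siRBM3 library than in any control library, as the labels require, with a log2 fold change of -2.14 (p = 0.1 in a two-sided exact permutation test, which cannot go lower with 3 samples a group). Its edgeR FDR was 0.0822, no gene had a smaller one, and its DESeq2 adjusted p was 3.87e-14. The epithelial keratins KRT7, KRT8, KRT18 and KRT19 were abundant, at 3167, 1149, 778 and 273 CPM on average in control cells. EPCAM was at 5.47 CPM, and KRT5 and CDH1 were below 1 CPM. Of 7 urothelial markers, 3 reached 1 CPM in all libraries (PPARG, GATA3 and UPK2, at 143, 10.75 and 1.42 CPM in control cells), whereas UPK1A, UPK1B, UPK3A and TP63 were below 1 CPM. Of 4 multiciliated cell markers in the table, 1 (DNAH5) reached 1 CPM in all libraries, and FOXJ1, the master regulator of motile cilia, had a mean of 0.106 CPM in control and 0.0378 CPM in siRBM3 cells. Of 5 leukocyte markers, CD14 was at 2.47 CPM in control and 2.36 CPM in siRBM3 cells and the others, PTPRC and CD3E among them, were near 0, with a summed list of 2.22 to 3.02 CPM in control and 2.25 to 2.63 CPM in siRBM3 libraries. The fibroblast markers DCN and LUM and the endothelial marker KDR were also at or near 0, but COL1A1 was at 8.04 and 8.86 CPM, and the summed fibroblast list lay between 9.34 and 9.57 CPM in control and between 10.2 and 11.7 CPM in siRBM3 libraries. The summed endothelial list, nearly all of it CDH5, lay between 27.9 and 33.8 CPM in control and between 33.8 and 40.8 CPM in siRBM3 libraries, and the summed epithelial list between 5065 and 5870 CPM in control and between 4207 and 4305 CPM in siRBM3 libraries. The part of these shifts in the results was not tested, and in RNA of whole cultures fewer cells of a kind and less RNA per cell cannot be told apart.

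The promoters of some of these genes, not all, hold a sequence feature that the choice of genes did not use. RFX transcription factors, which drive many ciliary genes, bind the X-box, a pair of inverted half-sites. In the RefSeq promoters, 250 bases before to 50 bases after each start on GRCh38.p14, the half-site GTTGCC (either strand) was found for 5 of the 9 genes that have an entry (BBS1, BBS5, TTC8, BBIP1 and ARL6), in 6 of their 13 promoters, and in 12.2% of all 35116 promoters. A looser pair, GTTNCC followed after 0 to 3 bases by NGNAAC (either strand), was found for LZTFL1, BBIP1 and ARL6, in 3 of the 13 promoters and in 1.71% of all. Both patterns were chosen after the promoters had been read, so the shares beside those of all promoters are a description and no support. Hits of the pair can contain the half-site. LZTFL1 had the pair and no half-site, and BBS1, BBS5 and TTC8 the half-site and no pair, so that only ARL6 and BBIP1 held a pattern also found for LZTFL1. The windows are printed to show both patterns, with the matching letters in capitals and the gene's own strand read 5′ to 3′. Their places on GRCh37 are chr3:45883606-45883634 (minus strand) for LZTFL1, chr3:97483570-97483599 for ARL6, chr10:112678901-112678929 (minus strand) for BBIP1, chr11:66278095-66278124 for BBS1, chr2:170335978-170336007 for BBS5 and chr14:89290949-89290978 for TTC8.
LZTFL1: tgcctcgGTTTCCGTTAGCAACcagaggc
ARL6: aagctcctGTTGCCAAGGGAACggtgcctg
BBIP1: tctcaccGTTACCCGGGGCAACagctgag
BBS1: agggcggggccgGTTGCCaggacgacgcct
BBS5: cagaggcggcccGTTGCCttggagccagag
TTC8: cagccgtcgcggGTTGCCgggcagagtcgg
In LZTFL1 the pair begins 16 bases before the start site, in ARL6 24 bases before it and in BBIP1 16 bases after it. BBS2, BBS4 and BBS7 held neither pattern in this window, and BBS9 had no entry. Factor binding was not measured in these samples.

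LZTFL1 (ENSG00000163818, chromosome 3 of GRCh37, 45864808 to 45957534, minus strand) had 11.5, 10.2 and 11.2 CPM in control replicates 1, 3 and 5, from 333, 266 and 297 counts. In siRBM3 replicates 3, 4 and 5 it had 25.7, 20.7 and 23.7 CPM, from 1056, 524 and 586 counts. The control libraries sat close together, every siRBM3 library was well above them, and these are the values for which the gene was picked. Control cells averaged 10.9 ± 0.68 CPM and siRBM3 cells 23.4 ± 2.53 CPM (SD, n = 3 each). On the log2 scale the difference was 1.09 (standard error 0.14), with values between 1.02 and 1.17 when each library was left out in turn. Among the 10630 genes with a mean of at least 5 CPM, 20 had a higher log2 fold change. This place follows from how the gene was picked and is no support for its difference. Antisense genes overlap 6.38% of the exon bases of LZTFL1 and no gene on its own strand does. The sources used here do not give the strand setting of the counting, so reads of the antisense genes cannot be told apart from its own.

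ARL6, the GTPase that loads the complex onto membranes (ENSG00000113966, chromosome 3, 97483365 to 97520073), had 8.44, 11.6 and 7.76 CPM in control and 9.94, 8.42 and 7.79 CPM in siRBM3 replicates, so its groups overlapped. Its log2 fold change of -0.08 had a 95% interval from -0.53 to 0.36 and an FDR of 0.891 (edgeR, Benjamini-Hochberg). The sign turned to 0.11 without control replicate 3, the library with the highest level.

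BBS2, BBS7 and BBS9 are built alike, with beta-propeller domains, and form the core on which the complex assembles. BBS2 (ENSG00000125124, chromosome 16, 56499552 to 56616579) was the most abundant member by CPM, with 56.7, 53.0 and 60.4 CPM in control and 43.8, 59.3 and 50.8 CPM in siRBM3 replicates. BBS7 (ENSG00000138686, chromosome 4, 122745484 to 122791642) varied least, with 21.9, 22.4 and 20.7 CPM in control and 23.4, 20.9 and 23.8 CPM in siRBM3 replicates. For both genes the groups overlapped, the low BBS2 value belonged to siRBM3 replicate 3, and 9.42% of the exon bases of BBS2 overlap other genes. BBS9 (ENSG00000122507, chromosome 7, 33149169 to 33916792) had 13.5, 11.5 and 14.4 CPM in control and 13.8, 17.0 and 15.3 CPM in siRBM3 replicates, again with overlap. The log2 fold changes were -0.15 for BBS2 (95% interval -0.44 to 0.15), 0.07 for BBS7 (-0.20 to 0.33) and 0.22 for BBS9 (-0.12 to 0.57). Single libraries moved these values: BBS2 was at -0.04 without siRBM3 replicate 3 and -0.26 without siRBM3 replicate 4. BBS7 ranged from 0.03 without siRBM3 replicate 5 to 0.12 without siRBM3 replicate 4, and BBS9 from 0.14 without control replicate 3 to 0.30 without siRBM3 replicate 3.

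BBS4 and TTC8 are made of tetratricopeptide repeats, helical units that bind other proteins, and BBIP1 is the smallest subunit. TTC8 (ENSG00000165533, chromosome 14, 89290497 to 89347422) had 15.03, 20.05 and 20 CPM in control and 23.5, 20.5 and 20.9 CPM in siRBM3 replicates. Every siRBM3 library was above every control library, though 2 control libraries came within 0.5 CPM of the lowest siRBM3 library. Its log2 fold change was 0.24 (95% interval -0.10 to 0.58), and its edgeR FDR was 0.540. Without control replicate 1, its lowest library, the log2 fold change was 0.11. BBS4 (ENSG00000140463, chromosome 15, 72978520 to 73030816) had 13.1, 19.6 and 17.4 CPM in control and 15.2, 16.6 and 15.5 CPM in siRBM3 replicates, so that all siRBM3 values lay inside the control range. The same held for BBIP1 (ENSG00000214413, chromosome 10, 112658488 to 112678959), with 20.8, 29.6 and 29.0 CPM in control and 26.7, 25.2 and 22.8 CPM in siRBM3 replicates. Their log2 fold changes were both -0.09, with 95% intervals of -0.46 to 0.29 for BBS4 and -0.45 to 0.28 for BBIP1, and 22.8% of the exon bases of BBIP1 overlap genes on the other strand, mainly PDCD4. BBS4, TTC8 and BBIP1 were each lowest among the control libraries in replicate 1, and without control replicate 3 the log2 fold changes of BBS4 and BBIP1 were 0.04 and 0.0023.

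**Figure D1:**
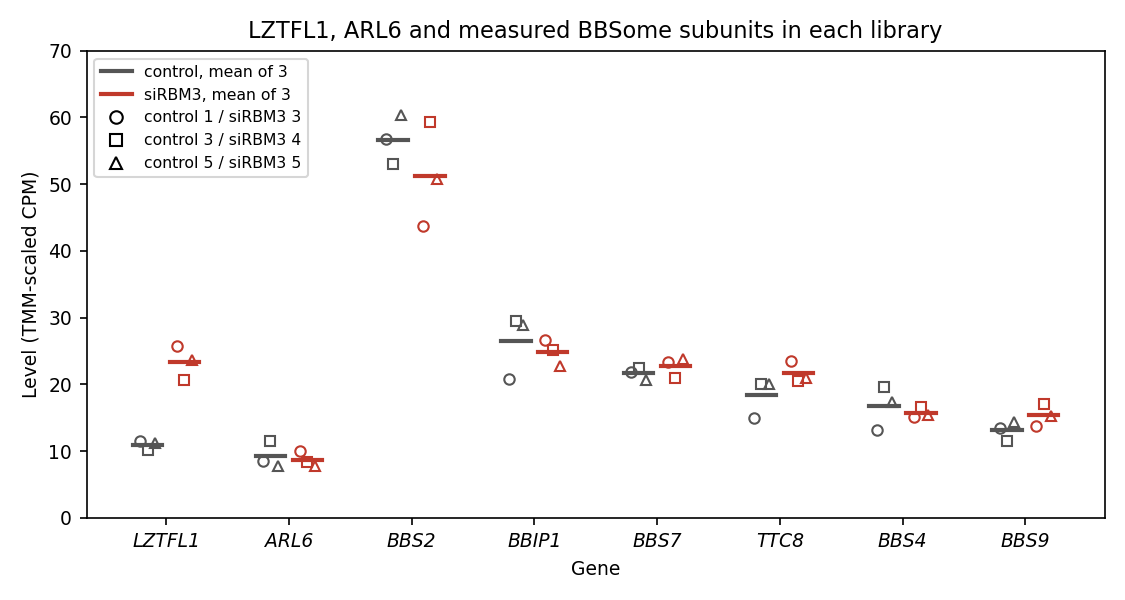
Level of LZTFL1, ARL6 and the 6 measured BBSome subunits in each of the 6 libraries, as CPM on a linear axis from 0. Marks are single libraries, grey for control and red for siRBM3, and lines are means of 3. LZTFL1 goes from 10.9 to 23.4 CPM on average with no overlap, while the marks of the 2 groups overlap for ARL6 and for every subunit shown but TTC8.

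Of the 7 tested genes other than LZTFL1, 0 passed the thresholds of the study, an FDR under 0.01 and a fold change of at least 1.5, where the edgeR quasi-likelihood test called 0% of all 15099 genes in either direction. At an FDR under 0.1 the count was also 0, against 0.338% (higher) and 0.212% (lower) of all genes. With an unadjusted p under 0.05 as the limit it was again 0 of 7, against 13.1% of all genes (6.56% higher and 6.58% lower), and limma-voom also gave 0. DESeq2, the tool named in the methods of the study, called 0 of the 7, against 1.22% of 13068 genes with an adjusted p of its own (0.643% higher and 0.574% lower). The smallest FDR among the 7 was 0.540. Groups did not overlap in 1 of the 7, TTC8, which was higher, against 19.9% of all genes (9.98% higher and 9.93% lower). Their median log2 fold change was -0.08, beside -0.01 over all genes tested, with 3 above 0 and 4 below, where 51.5% of all genes were below. The 95% intervals of the single genes ran from -0.53 at the lowest bound to 0.58 at the highest, so differences of that size were within the error. The 6 measured subunits together held 141, 156 and 162 CPM in control and 146, 159 and 149 CPM in siRBM3 replicates, with means of 153 ± 10.7 and 152 ± 6.97 CPM (SD, n = 3).

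Levels can be compared between genes only per length, as CPM per kilobase of length (RPKM). With the union of all annotated exons as length, the control order was BBS7 (4.40 ± 0.18 RPKM, SD, n = 3), BBS4 (4.02 ± 0.79), BBS2 (3.37 ± 0.22), BBIP1 (3.13 ± 0.58), TTC8 (2.93 ± 0.46), ARL6 (2.03 ± 0.44), BBS9 (1.46 ± 0.16) and LZTFL1 (1.17 ± 0.07). The ranges of neighbours overlapped from BBS7 down to ARL6, and did not overlap between ARL6 and BBS9 or between BBS9 and LZTFL1. In siRBM3 cells LZTFL1 stood at 2.49 ± 0.27 RPKM and took place 6 of the 8. The order rests on the length used: with the canonical transcript of each gene, a choice made after seeing the data, BBS2 came first at 21.0 ± 1.37 RPKM, BBIP1 second at 13.1 ± 2.43 RPKM and LZTFL1 seventh at 2.72 ± 0.17 RPKM in control cells. With that length LZTFL1 was sixth in siRBM3 cells, at 5.80 ± 0.63 RPKM, beside 5.91 ± 0.40 RPKM for BBS7. With the longest transcript it moved from place 7 to place 4.

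The level of LZTFL1 relative to its partners followed from these values. Per library, the RPKM of LZTFL1 divided by the mean RPKM of the 6 measured subunits (union of exons) was 0.423, 0.319 and 0.354 in control and 0.845, 0.664 and 0.782 in siRBM3 replicates. The means were 0.365 ± 0.053 and 0.764 ± 0.092 (SD, n = 3), with no overlap. The ratio is a description, since its numerator was chosen on this contrast.

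**Figure D2:**
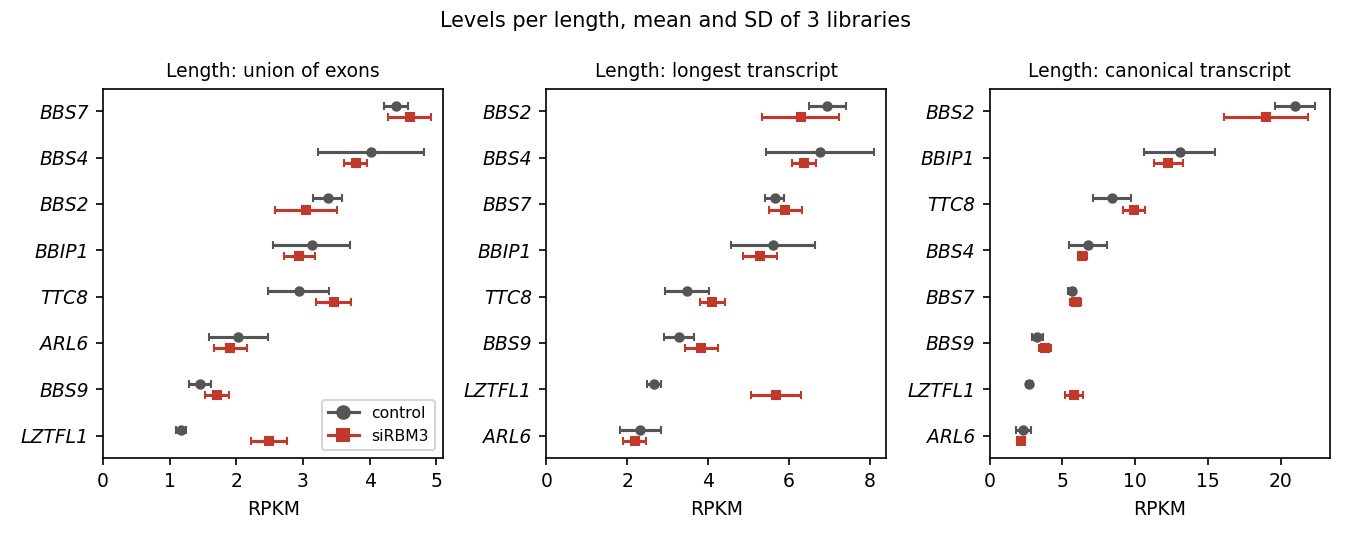
RPKM of the 8 measured genes with 3 choices of gene length, sorted by control level within each panel, with linear axes from 0. Points are means of 3 libraries and bars are SD, grey circles for control and red squares for siRBM3. LZTFL1 is among the lowest 2 genes in control cells with every length and at place 6, 4 and 6 in siRBM3 cells.

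BBS1, the subunit that contacts ARL6, and BBS5, a subunit with lipid-binding folds, could not be measured from this table. BBS1 (ENSG00000174483, chromosome 11, 66278077 to 66301084) was listed at 0 in 5 libraries and at 1 count in siRBM3 replicate 4, and BBS5 (ENSG00000163093, chromosome 2, 170335990 to 170363165) at 0 in all 6. A row at 0 allows up to 3 counts, or 0.0731 to 0.121 CPM by library, which covers counting error only and limits the reads assigned to the row, not the mRNA. On GENCODE v44, 54.0% of the exon bases of BBS1 and 23.5% of those of BBS5 lie in exons of another gene on the same strand. These are the read-through genes ENSG00000256349 and ENSG00000251569, which were themselves listed at 3 and 0 counts summed over the libraries. By default featureCounts leaves out a read that falls on exons of more than one gene, but the sources used here give neither the setting nor the annotation release. Among protein-coding genes of the table, 53% of the 781 with at least 50% same-strand overlap had at most 1 count in all libraries together, against 33.5% of the 612 with 20 to 50%, 16.4% of the 2126 with less than 20% and 16.7% of the 15969 with none. The part of the overlap in the rows at 0 was not tested. IFT80, DYNLT2B and TMEM231, of the IFT-B, dynein-2 and transition zone lists, were listed at 0 in every library too, with 27.6%, 31.1% and 8.23% of their exon bases shared on the same strand.

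The assembly of the BBSome needs a chaperonin complex of MKKS, BBS10 and BBS12 together with the general chaperonin ring TRiC, made of TCP1 and the CCT subunits. Of the 11 genes tested, 0 passed the FDR of 0.01. In edgeR 0% of all 15099 genes did, so a count of 0 in this and the following lists tells nothing particular about them. At an unadjusted p under 0.05 there were 7 lower and 1 higher, beside 6.58% and 6.56% of all genes. The 7 were MKKS, TCP1 and 5 CCT genes, whose ring folds actin, tubulin and many other proteins. The median log2 fold change of the list was -0.23. CCT7 lay below the control range in every siRBM3 library, with 459, 448 and 407 CPM in control and 342, 365 and 359 CPM in siRBM3 replicates (log2 fold change -0.30, standard error 0.09, edgeR FDR 0.230). CCT5, CCT8 and CCT2 had log2 fold changes of -0.28, -0.25 and -0.27, also without overlap, as had 9.93% of all genes in that direction. MKKS, a chaperonin-like protein, averaged 73.6 ± 9.62 CPM in control and 60.4 ± 5.10 CPM in siRBM3 cells (n = 3, SD), and its groups overlapped. BBS12 was the gene with the opposite sign, at 5.96, 7.23 and 5.46 CPM in control and 8.60, 9.05 and 7.71 CPM in siRBM3 replicates (log2 fold change 0.44, edgeR FDR 0.322).

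Among the other regulators of BBSome loading, 0 of the 6 tested beside ARL6 had an unadjusted p under 0.05, against 13.1% of all genes. RAB8A, the GTPase that directs vesicles to the cilium, had 87.5 ± 8.42 CPM in control and 83.0 ± 10.0 CPM in siRBM3 cells. PCM1, the scaffold of centriolar satellites where BBS4 gathers, had 60.8 ± 4.02 and 68.5 ± 3.08 CPM (SD, n = 3), and its edgeR FDR was 0.492.

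The trains that carry the BBSome are made of IFT-A and IFT-B. Of the 14 IFT-B genes tested, 0 passed the FDR of 0.01. At an unadjusted p under 0.05, 6 were higher and 0 lower, beside 6.56% and 6.58% of all genes. A log2 fold change above 0 was found for 11, and the median of the list was 0.24. IFT81, which binds tubulin cargo, had 17.4, 16.8 and 17.3 CPM in control and 23.6, 23.4 and 22.6 CPM in siRBM3 replicates (log2 fold change 0.43, standard error 0.11, edgeR FDR 0.175). The groups of IFT81 were far apart beside their own spread, and 0% of all genes passed the threshold that it missed. TTC30A, IFT22 and TRAF3IP1 had log2 fold changes of 0.55, 0.39 and 0.37, all without overlap, as had 9.98% of all genes in that direction. Of the exon bases of IFT22, 59.0% overlap other genes. TTC30A has a near-identical paralog, TTC30B, so its counts are uncertain. Of the 7 genes of IFT-A with its partner TULP3, WDR19 (0.43) and IFT140 (0.34) had an unadjusted p under 0.05. Both were higher, where 6.56% of all genes were higher and 6.58% lower at that limit. The median of the list was 0.175. TULP3 had a log2 fold change of -0.42 with overlap between the groups.

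The motors of transport showed both signs. Of 7 genes tested, 0 passed the FDR of 0.01. At an unadjusted p under 0.05, 3 were higher and 1 lower, beside 6.56% and 6.58% of all genes. DYNC2H1, the heavy chain of dynein-2 that moves trains back to the cell body, had 45.5, 46.1 and 42.1 CPM in control and 55.8, 56.5 and 63.6 CPM in siRBM3 replicates (log2 fold change 0.40, edgeR FDR 0.176). DYNC2I1, a dynein-2 intermediate chain, and KIF3A, a kinesin-2 motor subunit, had log2 fold changes of 0.37 and 0.34. KIF3B, the partner of KIF3A in the kinesin-2 heterodimer, had the opposite sign (-0.22), at 126 ± 5.51 CPM in control and 108 ± 5.04 CPM in siRBM3 libraries (SD, n = 3 each).

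The transition zone is the gate at the base of the cilium. Of its 16 genes tested, 14 had a log2 fold change above 0, where 51.5% of all genes were below 0. At an unadjusted p under 0.05, 6 were higher and 0 lower, beside 6.56% and 6.58% of all genes. The FDR of 0.01 was passed by 0. TCTN2, a tectonic protein of the gate, had 16.8, 8.19 and 11.1 CPM in control and 21.7, 21.25 and 25.5 CPM in siRBM3 replicates, a log2 fold change of 0.92 at an edgeR FDR of 0.191. Without the filter on low counts edgeR gave TCTN2 an FDR of 0.0000165, the only one of these cilium genes called by that setting. TCTN1 (0.44) and TCTN3 (0.28), the other tectonics, also had groups that did not overlap, as had 9.98% of all genes in that direction.

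Receptors and Hedgehog genes, the cargo side, gave 1 of 10 genes at an unadjusted p under 0.05, beside 13.1% of all genes. This was PKD2, the ciliary calcium channel polycystin-2, with 36.5, 37.9 and 39.7 CPM in control and 56.7, 46.6 and 50.5 CPM in siRBM3 replicates (log2 fold change 0.43, edgeR FDR 0.175). GLI1, the target gene by which Hedgehog activity is usually read, averaged 0.563 CPM in control cells and had a log2 fold change of -0.42 with overlap between the groups. PTCH1, a second Hedgehog target, had a log2 fold change of 0.43 with overlap. Of 9 genes that switch cilium assembly on or off, CEP97 (0.43) and TTBK2 (0.28) had an unadjusted p under 0.05. Over all genes 13.1% reached that limit. The groups of CEP97 overlapped, and the list had 5 genes above 0 and 4 below, with a median of 0.03. AURKA, a kinase of cilium disassembly and of mitosis, ranged from 96.9 to 198 CPM in control and from 44.8 to 131 CPM in siRBM3 libraries. RFX3, one of the factors that bind the X-box, had 8.13, 7 and 7.49 CPM in control and 11.9, 9.05 and 11.5 CPM in siRBM3 replicates (log2 fold change 0.52, edgeR FDR 0.247). Of the 5 tested regulators and dyneins of motile cilia, it was the 1 with an unadjusted p under 0.05, beside 13.1% of all genes. In that list 3 genes were above 0 and 2 below. RFX2, another RFX factor, had a log2 fold change of -0.42 with overlap between the groups.

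Over all these lists outside the 10 genes and RBM3, 85 of 97 cilium genes were tested. At an unadjusted p under 0.05 there were 22 higher and 8 lower, or 35.3% of the 85 beside 13.1% of all genes. The FDR of 0.01 was passed by 0 in edgeR, limma-voom or DESeq2. With a fold change of at least 1.5 as well, edgeR and limma-voom called 0 of all genes and DESeq2 1.22%. Of the 8 lower, 7 were chaperonins. No test of the lists was made. The number higher was 14 without control replicate 5, without siRBM3 replicate 3 or without siRBM3 replicate 5, and 12 when counts were scaled by library size only, with 7 lower. The number lower was 3 without siRBM3 replicate 3 or 4, 4 without siRBM3 replicate 5 or control replicate 3, and 5 without control replicate 1. The number of all genes at that limit, in either direction, moved as well, from 1983 in the reported fit. It was 1418 without control replicate 5, 1498 without siRBM3 replicate 3 and 1604 without siRBM3 replicate 5. It was 1515 without siRBM3 replicate 4, 1732 without control replicate 3, 2466 without control replicate 1 and 1741 with library size only.

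**Figure D3:**
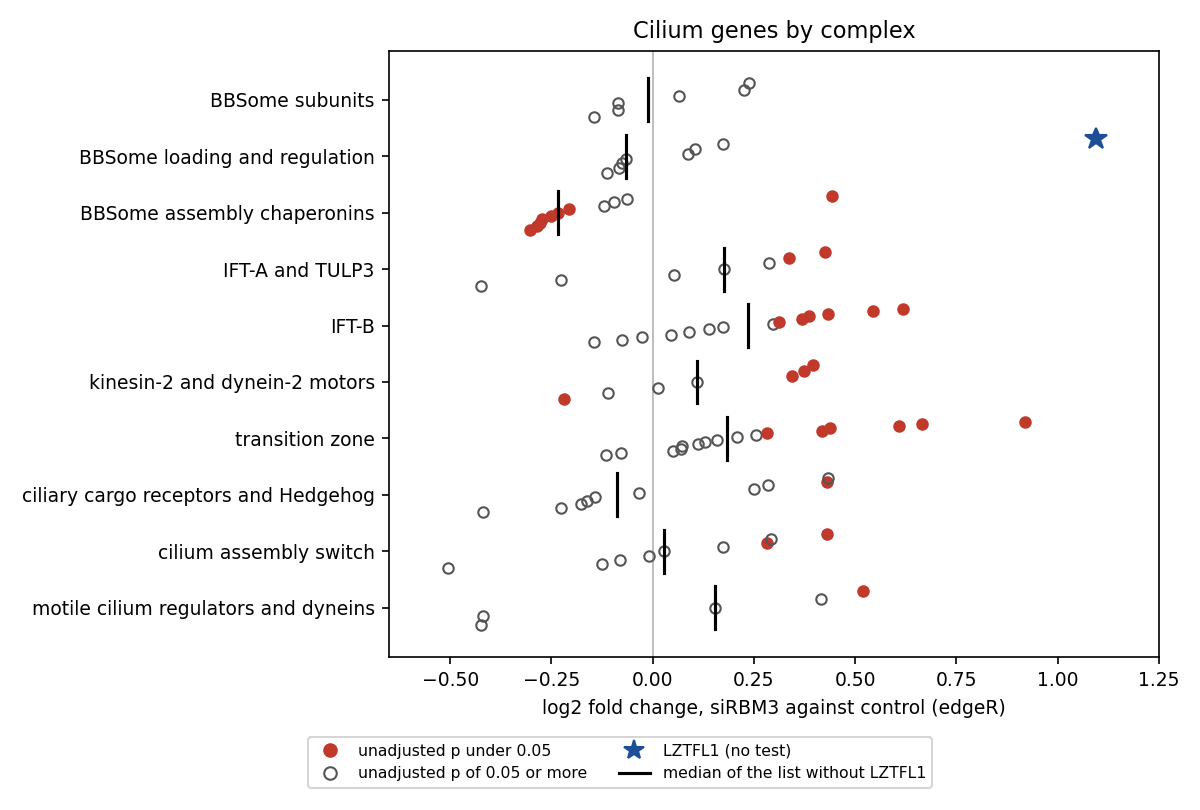
Log2 fold change of each tested gene, siRBM3 against control, by complex, on a linear axis. Filled red points have an unadjusted p under 0.05, open points do not, vertical bars are list medians without LZTFL1, and the star is LZTFL1, which was not tested. BBSome subunits lie between -0.15 and 0.24, and the star, a gene picked for its rise, is at 1.09 to the right of every point.

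LZTFL1 lies in a gene-dense part of 3p21.31, and its neighbours were compared to see whether they shared its difference. FYCO1, which links autophagosomes and late endosomes to kinesin, lies on the same strand, upstream of LZTFL1, with 1860 bases between the annotated spans of both genes and 75783 bases between the canonical start of LZTFL1 and the near end of FYCO1. FYCO1 had 47.3, 47.4 and 41.3 CPM in control and 24.8, 31.4 and 29.5 CPM in siRBM3 replicates, so it was lower in every siRBM3 library, the opposite of LZTFL1. The difference was -0.67 on the log2 scale (standard error 0.13). The edgeR FDR of FYCO1, 0.104, missed the threshold, as that of every gene did. Its DESeq2 adjusted p of 0.00155 passed it. On the other side, SACM1L, a phosphoinositide phosphatase, had a log2 fold change of 0.08, and LIMD1, a LIM-domain scaffold, one of 0.17 (edgeR FDR 0.816 and 0.486). SLC6A20 stayed at or below 0.122 CPM, and the chemokine receptors CCR9, CXCR6 and XCR1 were listed at 0 in all libraries.

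**Figure D4:**
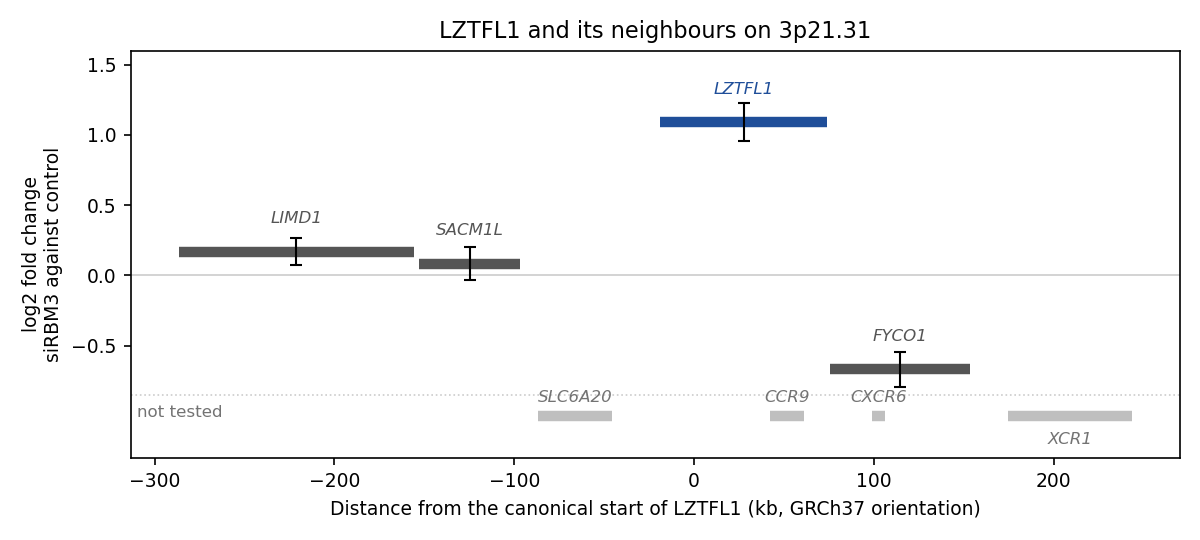
Log2 fold change of LZTFL1 and its tested neighbours against distance from the canonical start of LZTFL1, in kb. Horizontal bars span each gene, error bars are standard errors, and grey bars under the dotted line are genes with too few counts to test. LZTFL1 stands at 1.09, FYCO1 beside it at -0.67, and SACM1L and LIMD1 at 0.08 and 0.17.

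The genes named here as most correlated with LZTFL1 over the libraries were outside the cilium lists. Over the 6 libraries the highest Pearson correlations of log2 CPM, among 10629 other genes with a mean of at least 5 CPM, included those of EIF4EBP2 (r = 0.997), CAPZA1 (0.995), CRK (0.995) and SLK (0.995). These points share the contrast on which LZTFL1 was picked, so the values describe likeness only. EIF4EBP2, a repressor of cap-dependent translation, had 75.3, 69.6 and 77.1 CPM in control and 123, 111 and 116 CPM in siRBM3 replicates. CAPZA1 caps actin filaments, CRK is a signalling adaptor and SLK is a kinase of the cytoskeleton, with log2 fold changes of 0.39, 0.67 and 0.65. Among the partners of LZTFL1 the correlation ran from -0.58 for BBS2 to 0.62 for TTC8.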

How the data were processed

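RNA of 3 control and 3 siRBM3 samples of T24 cells was analysed. The authors used BBDuk for trimming, STAR for alignment to hg19/GRCh37, Picard for marking duplicates and featureCounts for assigning reads to genes. The deposited values are raw whole-number counts per Ensembl gene, not normalized. Not given in the sources used here are the annotation release, strand setting and use of marked duplicates. Samples were grouped by their labels.

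Symbols, places and lengths were taken from GENCODE v44 lifted to GRCh37, which matched 55665 of 63677 identifiers. Genes were kept by filterByExpr (minimum count 10, minimum total 15), scaled by TMM factors and tested with the edgeR 4.0.16 quasi-likelihood method with robust dispersions, with Benjamini-Hochberg adjustment over all 15099 genes. Alternatives were limma-voom (limma 3.58.1) and DESeq2 1.42.0, in R 4.3.3 and Python 3.11.15. Standard errors are the log2 fold change over the root of F. Counts carry counting error, so the lowest genes are least precise. In simulated counts of this comparison, edgeR called 73% of 100 genes changed 2-fold, with 3 unchanged genes called. In the measured counts edgeR called 0 of the 15099 genes, and RBM3 was not called at a log2 fold change of -2.14 (FDR 0.0822). The 73% therefore cannot be carried over to the measured counts, and the share of changed genes found there was not tested.

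The members, lists and patterns were chosen with earlier results of these data known. The genes named were the members, RBM3, in each list up to 4 genes with the smallest unadjusted p under 0.05 (or the 2 most abundant), the tested neighbours and the 5 likest genes. Of these, 2 are not reported here. TULP3, MKKS, BBS12, GLI1, PTCH1, AURKA and RFX2, outside that rule, and the genes listed at 0 were named after their values were seen. SSTR3, CCDC39 and PECAM1 were not matched to the table. Libraries of a group differed beyond sampling noise (chi-square per degree of freedom 27.7 to 141). Library replicate numbers 3 and 5 occur in both groups.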

Additional observations from a re-analysis of the deposited data

How the results depend on the processing

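Of 217 alternative values, 188 were labelled the same. For fold changes and ratios this means the same direction and side of the threshold, or a move smaller than the spread between libraries. For counts it means equal or within a factor of 1.5, and for places in the order no change. RBM3 (-2.14) was not called in the reported edgeR fit (FDR 0.0822). It was called by DESeq2 (-2.14), without the filter on low counts (-2.13), under the replicate block (-2.57) and at an FDR limit of 0.1. It was not called by limma-voom, with either other scaling, with a minimum mean of 20 counts or with any single library left out (FDR 0.0334 to 0.341), where it ranged from -2.40 to -1.96. LZTFL1 kept a log2 fold change of 1.02 to 1.17 with single libraries left out and 1.04 with library size only. Of the BBSome subunits and ARL6, 0 were called under every alternative, and 0 in all fits without one library. In limma-voom, both other scalings and the minimum mean of 20 counts, 0 of all genes were called. Fits without one library called 0 or 1 of all genes. In these settings the 0 was thus set in advance or nearly so. Over all genes DESeq2 called 84 higher and 75 lower, the fit without the filter 127 and 152, and the replicate block 145 and 191. The values of the replicate block rest on replicates 3 and 5 of each group, the numbers that both groups share. The log2 fold changes turned to 0.0445 for BBS4, 0.0023 for BBIP1 and 0.108 for ARL6 without control replicate 3, and no other tested member changed sign. With single libraries left out they ranged from -0.235 to 0.0445 for BBS4, -0.236 to 0.0023 for BBIP1, -0.196 to 0.108 for ARL6, -0.262 to -0.0417 for BBS2, 0.0301 to 0.122 for BBS7, 0.138 to 0.3 for BBS9 and 0.111 to 0.307 for TTC8.

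For the other cilium genes, 1 (TCTN2) was called with no filter, where edgeR called 127 genes higher and 152 lower in all against 0 with it. At an unadjusted p under 0.05, 12 were higher with library size only. With single libraries left out, 14 to 24 were higher and 3 to 6 lower at that limit. Of all genes, in either direction, 1741 reached it with library size only and 1418 to 2466 with single libraries left out. In those last fits 0 were called, beside 0 or 1 of all genes. Replicate numbers 3 and 5 are shared by the groups, and deviations of same-numbered libraries correlated at 0.72 and 0.0663. These values cannot decide whether the numbers pair the samples, since libraries with different numbers were not compared. The reported fit used no pairing. With the numbers as a replicate block, control replicate 1 and siRBM3 replicate 4 had no partner of the same number. The difference then rested on replicates 3 and 5 of each group only. In this fit 1 subunit (BBS2, log2 fold change -0.263) had an unadjusted p under 0.05, beside 3745 of all genes. In that fit 3 cilium genes were called (TCTN2, PTCH1 and AURKA), beside 145 genes higher and 191 lower in all. The cause was not tested.

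LZTFL1 held place 8 in control and 6 in siRBM3 cells with single libraries left out (8 to 8 and 6 to 6), place 7 and 4 with the longest transcript, and place 7 in control with the canonical transcript. Its ratio to all 8 subunits, BBS1 and BBS5 at 0 included, was 0.487 and 1.02 (0.448 to 0.518 and 0.964 to 1.09 with single libraries left out), 0.676 and 1.43 with the longest transcript, 0.377 and 0.814 with the canonical one, and 0.365 and 0.764 over 6 subunits, since lengths and subunits set its scale. With library size only, 2 of the 5 likest genes remained among the 5. The lowest count of a tested member in a library was 193, for ARL6.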
